A study of Mus musculus with 14 samples.

Results

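Interferon response genes are genes whose transcription rises when a cell receives an interferon signal. A set of 34 such genes was followed in mouse liver of both sexes from 3 wk of age into young adulthood. Its members were picked by symbol, through the RefSeq accession of each microarray probe, and the brightest probe of a gene was used. A probe was found for 32 of the 34, among 19751 named genes on the array, and Mx1 and Mx2 were not matched. All mice were of the outbred CD-1 strain, with no treatment or genetic change named in the labels. The groups were males and females aged 3 wk (M3 and F3), 4 wk (M4 and F4) and 8 wk (M8 and F8). Each group was 2 RNA pools, of 5 mice at 3 wk and 6 mice at 4 and 8 wk, so the spread between single mice was not measured. The pools met in 7 comparisons, 3 of the sexes at one age (M3/F3, M4/F4 and M8/F8) and 4 of ages within a sex (M8/M3 and M8/M4 in males, F8/F3 and F8/F4 in females), each on 2 two-colour arrays with separate pools and the dyes exchanged, which are called replicate 1 and replicate 2 here.

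Type I interferons signal through the receptor Ifnar1/Ifnar2, the kinases Jak1 and Tyk2 and a complex with Stat2 and Irf9, which binds the interferon-stimulated response element (ISRE). Interferon gamma signals through Ifngr1/Ifngr2 to the gamma-activated site (GAS). The products degrade or bind viral RNA, attack vacuoles that hold parasites and bacteria, and prepare peptides for MHC class I, and in liver hepatocytes, Kupffer cells and endothelial cells can all respond.

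Values are log2 ratios of the first-named over the second-named group, so that a value below 0 in M8/F8 means a lower level in males. Between 55.2% and 77.2% of the spots of an array were well above background in a given channel (a test by the scanner's software of the spot against its local background), and no spot was saturated. The Y-linked Ddx3y lay between 5.80 and 7.24 and Xist between -6.67 and -5.10 in the male over female arrays, which is the orientation the labels give. A gene was called where limma's adjusted p was below 0.05, the ratio exceeded 1.5-fold in either direction, and one group or the other had a signal well above background on replicate 1 and on replicate 2. Of the members, 31 or 32 met the background condition in each comparison, and Oas3, the dim one, met it in the female age comparisons and in M8/M4. Array medians and pool levels over 32 genes include Oas3 throughout. The comparisons share groups, so they are not independent of each other. Pools with the same group and replicate number were taken to be the same pool in each comparison, which the sources do not state outright. In whole liver RNA, fewer cells of a type and less RNA per cell cannot be told apart.

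The members were examined first for the sequence letters that an interferon-activated factor reads. Promoter windows of 300 bases (250 before and 50 after the start of the gene) came from RefSeq on GRCm38.p6 and were held for 25 of the 34 members. An ISRE-like match, GAAANNGAAA on either strand, was present in 14 of the 25 (56%), against 3.99% of the 27025 genes with a window. A GAS-like match, TTCNNNGAA, was present in 6 of the 25 (24%), against 9.55% of all genes. The motifs shared a base in 1 member, and ISRE-like matches overlapped each other in 5. Of the members called in at least 1 comparison, 9 of 13 with a window held the ISRE-like letters, and of those called in none, 5 of 12. A match describes the letters and is not evidence of binding. Among members called below, Rsad2 and Trim30a also held these letters, and the windows of Ifit2, Oasl1, Oasl2 and Ifi44 did not. The following 70-base stretches upstream of the start are a selection from the members with the letters to which the ratios return below. They are on the strand of the gene, with the ISRE-like letters in capitals (TTTC marks the half-site GAAA on the opposite strand).
Isg15, chr4:156200860-156200929, minus strand: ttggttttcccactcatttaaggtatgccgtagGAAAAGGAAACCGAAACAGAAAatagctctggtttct
Ifit1, chr19:34640759-34640828, plus strand: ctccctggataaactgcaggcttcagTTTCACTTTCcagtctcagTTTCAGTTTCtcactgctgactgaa
Ifit3, chr19:34583362-34583431, plus strand: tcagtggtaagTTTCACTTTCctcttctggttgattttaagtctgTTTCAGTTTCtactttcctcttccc
Oas1a, chr5:120907526-120907595, minus strand: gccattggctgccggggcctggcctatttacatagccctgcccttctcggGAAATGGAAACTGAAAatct
Gbp2, chr3:142620559-142620628, plus strand: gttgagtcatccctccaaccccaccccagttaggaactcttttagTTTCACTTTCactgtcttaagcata
Gbp3, chr3:142559960-142560029, plus strand: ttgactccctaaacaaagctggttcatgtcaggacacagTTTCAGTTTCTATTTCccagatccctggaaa
Igtp, chr11:58199477-58199546, plus strand: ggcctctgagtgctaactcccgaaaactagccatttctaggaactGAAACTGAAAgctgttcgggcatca
In Isg15, Oas1a and Gbp3 the capitals run together because half-sites are shared by neighbouring matches.

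Male and female liver were compared first at the younger ages. No member was called in M3/F3 (0 of 31, against 0.517% of all genes tested) or in M4/F4 (0 of 31, against 1.59%). With no adjustment, 5 of 31 members in M3/F3 and 6 of 31 in M4/F4 had a limma p below 0.05. Of all genes tested, 1586 of 13338 and 2747 of 13083 did. Averaging weighted by the deposited errors also called none of the members. At 3 wk the members' medians on the arrays were -0.02 and 0.06, with 17 and 12 of 32 below 0. At 4 wk they were -0.01 and -0.21, so that the second array lay lower than the first. Oasl1, an OAS-like protein, was 0.48 and 0.44 in M3/F3 (0.46, SE 0.08, adjusted p = 0.00935), and Zbp1 was 0.32 and 0.27 (0.30, SE 0.04, adjusted p = 0.00612). Both ratios were above 1 on both arrays but stayed under the fold threshold. Ifi27l2a, a small interferon-induced protein, ran the other way at both ages, at -0.51 and -0.26 in M3/F3 and -0.38 and -0.46 in M4/F4, again within the fold threshold.

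**Figure D1:**
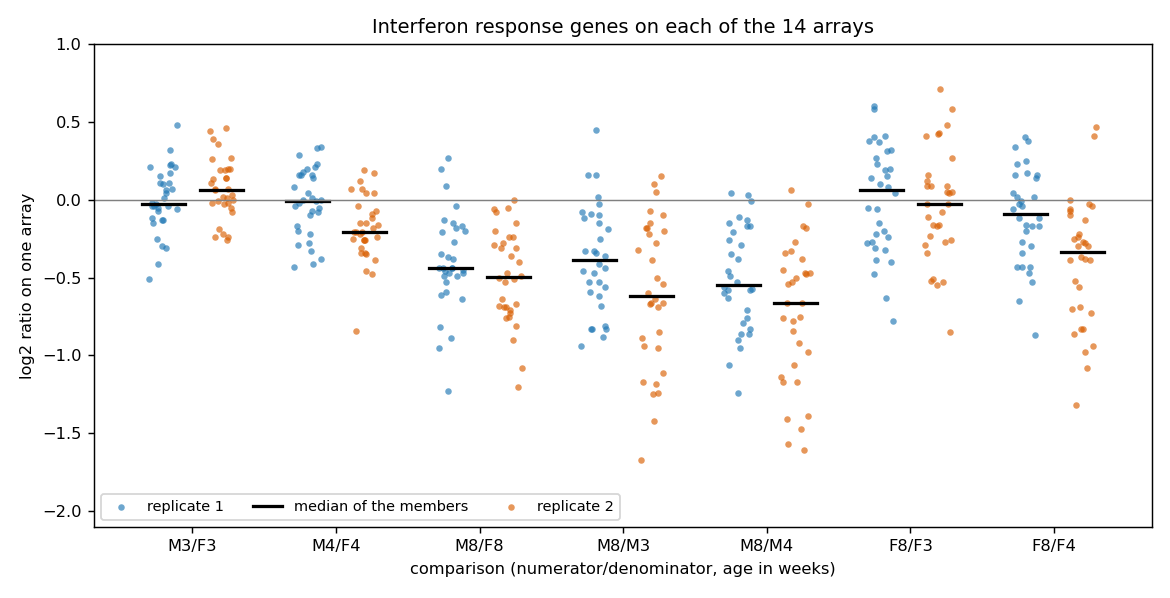
Log2 ratio of each of the 32 measured interferon response genes on each of the 14 arrays (vertical axis), by comparison (horizontal axis). Blue points are replicate 1, orange points replicate 2 and black bars the median of the members on that array. The medians lie between -0.66 and -0.39 in the 3 comparisons whose numerator is M8 and between -0.34 and 0.06 in the others.

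At 8 wk most members, 29 of 31, had a fitted ratio below 0 in male over female liver. In M8/F8, 6 of 31 fell and none rose (19.4%, against 6.42% of all genes tested), and the members' median was -0.44 where that of all genes was 0.00. On both arrays 28 of the 31 lay below 0, and none lay above 0 on both. The array medians were -0.44 and -0.49, but single genes differed more between the arrays, such as Oas2 at -0.04 and -0.64 and Irf7 at 0.09 and -0.50. The 6 genes were Gbp3, Ifit1, Ifit3, Gbp2, Igtp and Zbp1. The other 25 are given as values: they ran from -0.64 for Ifi44 to 0.09 for Dhx58, and 9 of them passed the adjusted p without reaching the fold threshold.

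The lowest ratio in M8/F8 was that of Gbp3. It is a guanylate-binding protein (GBP), one of the GTPases that assemble on the membranes of pathogens and their vacuoles. Gbp3, whose upstream stretch above holds overlapping ISRE-like letters, was -1.23 and -1.08 in M8/F8. The fitted ratio of -1.15 (SE 0.14, adjusted p = 0.00242) is a 2.22-fold lower level in males. Gbp2 was -0.82 and -0.73, or 1.71-fold lower (-0.77, SE 0.13, adjusted p = 0.00904). Igtp, an immunity-related GTPase of the same defence, was -0.64 and -0.69, or 1.59-fold lower (-0.66, SE 0.07, adjusted p = 0.00186). The other members of the group stood nearer to 0, with Irgm1 at -0.20 and -0.15 and Iigp1 at -0.18 and -0.06.

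Of the IFIT proteins, which bind foreign RNA and block its translation, Ifit1 was -0.95 and -1.20 in M8/F8 (-1.08, SE 0.23, adjusted p = 0.0229). Ifit3 was -0.89 and -0.90 (-0.89, SE 0.15, adjusted p = 0.0105). These are levels 2.11-fold and 1.86-fold lower in males, and the arrays of Ifit3 hardly differed. Ifit2 was -0.61 and -0.31 and was not called (adjusted p = 0.0975). Zbp1, a sensor of Z-form nucleic acid that can start necroptosis, was -0.49 and -0.69 (-0.59, SE 0.04, adjusted p = 0.000479), a ratio just past the fold threshold, having been above 0 at 3 wk.

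**Figure D2:**
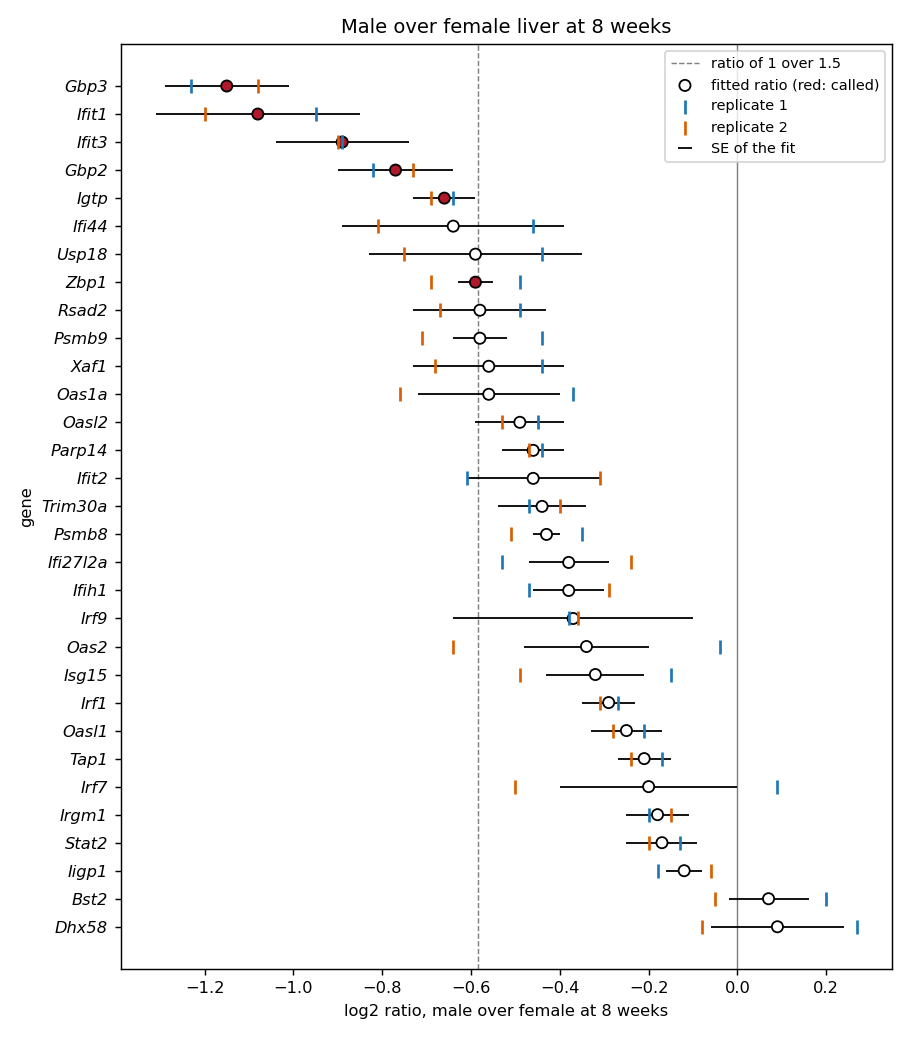
Log2 ratio of male over female liver at 8 wk (horizontal axis) for each of the 31 genes above background (vertical axis). Circles are the fitted ratio, red where called, horizontal lines the standard error of the fit, and ticks the arrays of replicate 1 (blue) and replicate 2 (orange), with a dashed line at a ratio of 1 over 1.5. Gbp3 at -1.15 and Ifit1 at -1.08 lie farthest below 0, and Bst2 and Dhx58 alone have a fitted value above 0.

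The remaining antiviral and interferon-induced proteins were not called. Rsad2 (viperin) was -0.49 and -0.67 in M8/F8, Ifi44 -0.46 and -0.81, and Usp18, the protease that removes Isg15 from proteins, -0.44 and -0.75. The immunoproteasome subunits, which cut peptides for MHC class I, passed the p threshold but not the fold threshold. Psmb8 was -0.35 and -0.51 (adjusted p = 0.000347) and Psmb9 -0.44 and -0.71 (adjusted p = 0.00113). Without replicate 2 of M8/F8 the count was 1, Gbp3 with adjusted p = 0.0281, because Igtp (-0.56) and Zbp1 (-0.53) then missed the fold and Ifit1, Ifit3 and Gbp2 the p. Without replicate 1 it was 6, with Gbp2 (adjusted p = 0.0746) and Ifit3 (adjusted p = 0.0541) lost and Oas1a and Psmb9 gained.

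The male age comparisons ask at which age the levels in males moved. In M8/M3, 11 of 31 members fell and none rose (35.5%, against 17.9% of all genes), with a median of -0.49. In M8/M4, 13 of 32 fell and none rose (40.6%, against 10.9%), with a median of -0.58. On both arrays 26 of 31 members were below 0 in M8/M3 and 29 of 32 in M8/M4. Called in both were Isg15, Zbp1, Ifit2, Oas1a, Oasl2, Rsad2, Ifi27l2a, Gbp2, Gbp3 and Igtp. In M8/M3 some of these calls ended under other processing: with normexp background correction Isg15 (-0.51), Ifit2 (-0.58) and Oasl2 (-0.49) missed the fold threshold, as did Isg15 with median centring (-0.55). Without replicate 1 of M8/M3, Gbp2, Ifit2, Oasl2 and Usp18 missed the p threshold (adjusted p from 0.0749 for Oasl2 to 0.129 for Gbp2).

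The lowest fitted ratio of the male comparisons was that of Rsad2, a radical-SAM enzyme that makes a chain-terminating nucleotide. It was -1.24 and -1.47 in M8/M4, which is a 2.56-fold lower level at 8 wk (-1.35, SE 0.15, adjusted p = 0.00187). In M8/M3 it was -0.68 and -1.17 (-0.93, SE 0.15, adjusted p = 0.00804). Ifi44, a cytoplasmic interferon-induced protein, was -0.95 and -1.57 in M8/M4 (-1.26, SE 0.25, adjusted p = 0.017). In M8/M3 its arrays were -0.44 and -1.24 and it was not called (adjusted p = 0.0718). Replicate 2 was the lower array in each of these pairs.

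Among the 2′-5′ oligoadenylate synthetases, which activate RNase L, Oas1a was -0.86 and -1.17 in M8/M4 (-1.01, SE 0.16, adjusted p = 0.00701) and -0.56 and -1.11 in M8/M3 (-0.83, adjusted p = 0.0149). Oasl2 was -0.83 and -1.14 in M8/M4 (-0.98, SE 0.10, adjusted p = 0.00149) and -0.59 and -0.66 in M8/M3 (-0.62, adjusted p = 0.00851). Oas1a was thus 2.02-fold and Oasl2 1.98-fold lower at 8 wk than at 4 wk. Oas2 was -0.53 and -0.54 in M8/M4 and short of the fold threshold. Oas3 was well above background on none of the M8/M3 arrays, in either channel, so no ratio is given for it there.

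Isg15, a ubiquitin-like modifier, was -0.53 and -0.67 in M8/M3 (-0.60, SE 0.11, adjusted p = 0.0113) and -0.57 and -0.76 in M8/M4 (-0.67, adjusted p = 0.0076). Its protease Usp18 was -0.53 and -1.42 in M8/M3 (-0.97, SE 0.24, adjusted p = 0.0401), so that the arrays were far apart. In M8/M4 Usp18 was -0.35 and -1.41 and missed the threshold (adjusted p = 0.056). The 1.96-fold call of Usp18 in M8/M3 was lost in 11 of 26 alternative settings, with an adjusted p of up to 0.295.

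Igtp was -0.83 and -0.95 in M8/M3 (-0.89, SE 0.07, adjusted p = 0.000656) and -0.63 and -0.98 in M8/M4 (-0.81, adjusted p = 0.000913). Zbp1 was -0.88 and -0.94 in M8/M3 (-0.91, SE 0.04, adjusted p = 0.000137) and -0.86 and -0.75 in M8/M4 (-0.81, adjusted p = 0.000184). These genes thus stood 1.75-fold to 1.88-fold lower in adult males. Gbp3 was -0.83 and -1.18 in M8/M3 (-1.01, adjusted p = 0.00408) and -0.79 and -1.39 in M8/M4 (-1.09, adjusted p = 0.00301). Gbp2 had a fitted ratio of -0.72 in both comparisons (adjusted p = 0.0121 and 0.0117), from arrays at -0.83 and -0.60 and at -0.60 and -0.84.

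Ifit2 was -0.94 and -0.89 in M8/M3 (-0.91, SE 0.15, adjusted p = 0.00858) and -0.76 and -0.92 in M8/M4 (-0.84, adjusted p = 0.0117). Ifit1 was -0.90 and -1.61 in M8/M4 (-1.25, SE 0.23, adjusted p = 0.013), a 2.38-fold lower level, and in M8/M3 it was -0.47 and -1.25 (adjusted p = 0.0519). Trim30a, a TRIM protein that restrains inflammatory signalling, was -0.58 and -1.06 in M8/M4 (-0.82, SE 0.10, adjusted p = 0.00247). Without replicate 2 the count in M8/M4 was 7, with Isg15, Ifit1, Ifit2, Oas1a, Ifi44 and Gbp2 lost, and the count in M8/M3 was 7, with Usp18, Isg15, Oas1a, Oasl2 and Rsad2 lost and Irgm1 gained.

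Female liver showed fewer calls. In F8/F3, 1 of 32 members rose and 1 fell (6.25%, against 11.8% of all genes), with a median of -0.01. On both arrays 12 members were below 0 and 12 were above 0. The one that rose was Oasl1, an OAS-like protein without synthetase activity that limits Irf7 translation, at 0.60 and 0.71 (0.65, SE 0.08, adjusted p = 0.00237). Without replicate 2 of F8/F3 it was 0.58 and missed the fold threshold. The immunoproteasome subunits lay above 0 on both arrays, with Psmb8 at 0.23 and 0.41 (adjusted p = 0.000922) and Psmb9 at 0.20 and 0.58 (adjusted p = 0.00507), under the fold threshold.

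In F8/F4, 4 of 32 fell and none rose (12.5%, against 6.04%), with a median of -0.28. They were Oas1a, Oasl2, Rsad2 and Ifi27l2a. Rsad2 was -0.65 and -0.94 (-0.79, SE 0.15, adjusted p = 0.0145), Oasl2 -0.43 and -0.86 (-0.64, SE 0.10, adjusted p = 0.00753) and Oas1a -0.53 and -0.83 (-0.68, SE 0.16, adjusted p = 0.0319). Their second array was the lower one. Without replicate 2 of F8/F4 only Ifi27l2a was still called, and without replicate 1 Rsad2 and Oas1a were lost. With the mean of both its probes Oas1a had an adjusted p of 0.0599.

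Ifi27l2a was called in all 4 age comparisons and under all 26 alternative settings of each. In males it was -0.81 and -0.85 in M8/M3 and -1.06 and -1.17 in M8/M4. In females it was -0.78 and -0.85 in F8/F3, and the F8/F4 arrays gave -0.87 and -1.32. Fitted ratios were -0.83 and -0.81 from 3 wk in males and females, and -1.12 and -1.09 from 4 wk. The difference between the sexes was -0.01 (SE 0.12) from 3 wk and -0.03 (SE 0.12) from 4 wk, so the adult decrease, 1.76-fold to 2.17-fold, differed between males and females by less than that error.

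**Figure D3:**
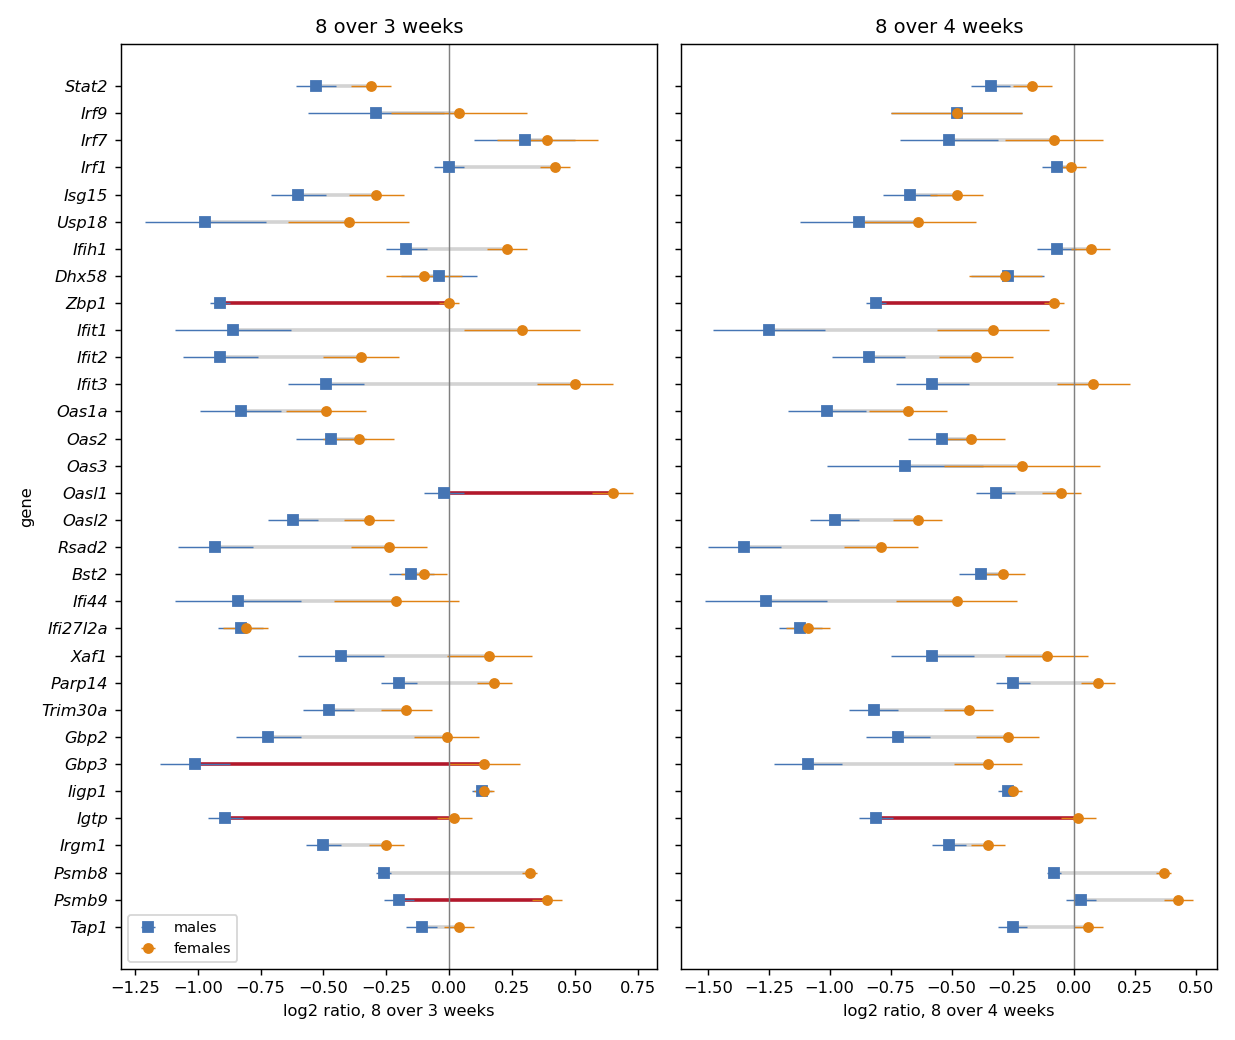
Log2 ratio of 8 wk over 3 wk (left) and over 4 wk (right) for each of the 32 measured genes, with Oas3 left out on the left, males as blue squares, females as orange circles and the standard error of the fit as thin lines. A red bar joins the sexes where the difference between them was called, and a grey bar where it was not. Zbp1, Gbp3, Igtp, Oasl1 and Psmb9 have red bars on the left, and Zbp1 and Igtp on the right.

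The difference between male and female age ratios was tested directly. The male ratio was below the female one in 30 of the 31 members above background in both comparisons from 3 to 8 wk and in 30 of 32 from 4 to 8 wk. Of all genes tested for the difference, it was below in 7380 of 14898 and in 7834 of 15162. The members were measured in the same pools, so their signs are not independent observations. A call was made for 5 members from 3 to 8 wk (15.6%, against 3.37% of all genes), all of them lower in males, and for 2 from 4 to 8 wk (6.25%, against 1.33%). Zbp1 differed by -0.91 (SE 0.06, adjusted p = 0.00177) from 3 wk and by -0.73 (SE 0.06, adjusted p = 0.00799) from 4 wk. Igtp differed by -0.92 (SE 0.10, adjusted p = 0.00769) and by -0.83 (SE 0.10, adjusted p = 0.0197). For both genes the female ratios were between -0.08 and 0.02, and the male ratios were between -0.91 and -0.81.

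From 3 to 8 wk Gbp3 differed by -1.15 (SE 0.19, adjusted p = 0.025). Its female ratio was 0.14, from arrays at 0.40 and -0.11 that disagreed in sign. Oasl1 differed by -0.68 (SE 0.11, adjusted p = 0.0223) and Psmb9 by -0.59 (SE 0.08, adjusted p = 0.0124). In these last genes the male ratios were -0.02 and -0.20 and the female ones 0.65 and 0.39, so the larger ratios were those of the females. The sex comparisons gave the same interactions on other arrays but from the same groups, as M8/F8 minus M3/F3. This route is not an independent repeat, and it again called these 5. The count was 2 without replicate 2 of F8/F3 or without either array of M8/M3, Zbp1 and Igtp being called each time. It was 3 with no dye term and 9 with a covariance that held the pools the arrays share. From 4 to 8 wk it was 1, Zbp1, without replicate 1 of F8/F4 or replicate 2 of M8/M4.

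The younger ages were linked through the 8 wk groups they were both compared with. No member was called in M4/M3 (0 of 32, against 0.292% of all genes) or in F4/F3 (0 of 32, against 0.0931%). Unadjusted limma p-values were below 0.05 for 8 and 5 of the 32 members, and for 2625 of 15062 and 2145 of 15040 of all genes. The medians were 0.09 and 0.22. With that covariance Oasl1 was called in F4/F3, at 0.72 (adjusted p = 0.0051).

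If a replicate number stands for the same pool in each comparison, the arrays of that number connect all 6 groups and give each pool a level relative to the mean of those 6 pools. The levels below rest on that assumption. The M8 pool had the lowest level of the 6 for 24 of 32 members in replicate 1 and 27 in replicate 2, and for 24 in both. Of the further interferon pathway genes described below, 41 and 47 of 84 were lowest in M8. The share of all genes lowest in M8 was not counted, and their median level there was 0.01 and 0. The members' median relative log2 level in M8 was -0.38 and -0.61. In M3, M4, F3, F4 and F8 the medians ran from -0.02 to 0.35. Gbp3 stood at -0.84 and -1.08 in M8 and between -0.06 and 0.70 in the other 10 pools, so the groups did not overlap. Igtp stood at -0.53 and -0.68 in M8 and between -0.06 and 0.34 elsewhere, also without overlap. How many of all genes separate M8 in this way was not counted.

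**Figure D4:**
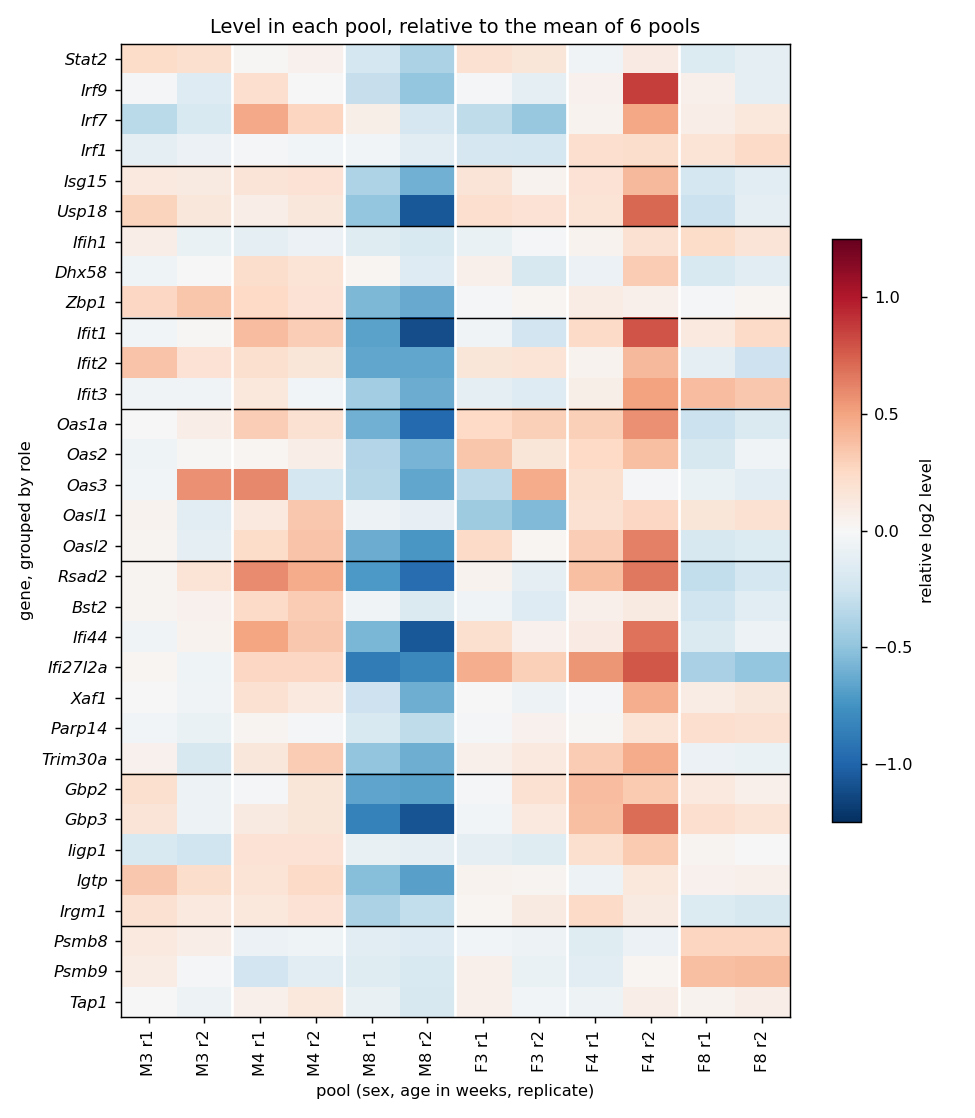
Relative log2 level (colour) of the 32 measured genes (rows, grouped by role) in each of the 12 RNA pools (columns; r1 and r2 are the replicates), each against the mean of the 6 pools of its replicate, a replicate number being taken as 1 pool per group. The M8 columns are blue in most rows, with member medians of -0.38 and -0.61, and the F4 column of replicate 2 is the reddest, with a median of 0.35.

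The F4 pool of replicate 2 also stood apart. It had the highest level of the 6 for 20 of 32 members, with a median of 0.35 against 0.14 in the F4 pool of replicate 1. The share of all genes highest in that pool was not counted, and their median level there was 0.01. Irf9, the DNA-binding partner of Stat2, showed this most: its relative level was 0.86 in that pool and at most 0.21 in the other 11. Its arrays accordingly were 0.16 and -0.84 in M4/F4 and 0.02 and -0.98 in F8/F4, and it was called in no comparison. Values that rest on F4 therefore differed between replicates, and levels of single mice within a pool cannot be seen.

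Of the 32 measured members, 16 had a call in 1 or more of the 7 comparisons (against 23.2% of all genes) and 16 had none. Of the transcription factors, Stat2 ran from -0.53 in M8/M3 to 0.05 in M3/F3, and Irf7, which amplifies interferon production, from -0.51 in M8/M4 to 0.39 in F8/F3 with arrays that often disagreed. Irf1, the factor for gamma-responsive genes, was -0.27 and -0.31 in M8/F8 (adjusted p = 0.0207) and 0.41 and 0.43 in F8/F3 (adjusted p = 0.00501), both within the fold threshold. The RNA sensors Ifih1 (MDA5) and Dhx58 (LGP2) had fitted ratios from -0.38 to 0.23 and from -0.28 to 0.09. Bst2 (tetherin), which holds virions at the cell surface, ran from -0.38 to 0.20, the ADP-ribosyltransferase Parp14 from -0.46 to 0.18, Xaf1 from -0.58 to 0.16 and the peptide transporter subunit Tap1 from -0.25 to 0.08. Neither sex nor age thus moved them past 1.5-fold with an adjusted p below 0.05.

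A second, dimmer probe was present for 8 members. For Isg15, Oas1a, Iigp1, Irgm1 and Zbp1 it gave M8/F8, M8/M3 and M8/M4 ratios of the same sign as the first, and for Zbp1 it lay lower than the first (-1.65 in M8/M3). The second Oas1a probe was called in M8/M4 (-0.76, limma adjusted p = 0.0278). It was not called in M8/M3 (-0.62, adjusted p = 0.0555) or F8/F4 (-0.48, adjusted p = 0.12), where the brighter one was. The second probe of Ifih1 gave 0.40 (SE 0.10) in M8/M3, where the brighter one gave -0.17 (SE 0.08). That of Xaf1, a dim probe, gave -1.92 with an SE of 0.83 (adjusted p = 0.2), too wide to set against the -0.43 of the brighter one. That of Irf1 did not meet the background condition in any comparison, so no ratio is given for it. Close paralogs, such as the GBP, IFIT and OAS families, may share signal on an array, which was not tested.

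Of 90 further genes of the interferon pathway, chosen by role but with earlier results of these data known, 84 had a probe. In M8/F8, 10 of 76 tested fell and none rose (13.2%, against 6.42% of all genes, median -0.19). In M8/M3 12 of 77 fell and 1 rose (16.9%, against 17.9%), and in M8/M4 16 of 79 fell and 1 rose (21.5%, against 10.9%). Among females, 4 of 78 fell and 3 rose in F8/F3 (8.97%, against 11.8%). The F8/F4 comparison had 3 of 79 lower and 1 higher (5.06%, against 6.04%). In M8/M3 and in the female comparisons the share called in either direction was thus no higher than that of all genes. By direction, 15.6% of the pathway genes fell in M8/M3, against 10.1% of all genes, and 1.3% rose, against 7.83%. The difference between male and female age ratios was called for 2 of 78 pathway genes from 3 to 8 wk (2.56%, against 3.37%) and for 0 of 79 from 4 to 8 wk (against 1.33%). From 4 to 8 wk, 26 of the 79 had an unadjusted limma p below 0.05, as had 2675 of 15162 of all genes. Of the genes at the top of the pathway, Ifnar1 lay between -0.30 and 0.10 in the comparisons with an 8 wk group and Jak1 between 0.03 and 0.19, with no call. Ifnar2 was 0.52 and 0.60 in M8/M3 (adjusted p = 0.00115), under the fold threshold. The interferon gamma receptor chain Ifngr1 fell from 3 to 8 wk in both sexes, at -0.65 and -0.80 in M8/M3 and -0.67 and -0.67 in F8/F3. From 4 wk it was under the fold threshold, at -0.47 and -0.65 in males and -0.42 and -0.47 in females, while Ifngr2 was within 0.26 of 0. The lambda receptor chain Ifnlr1 was -0.39 and -0.87 in M8/F8 (adjusted p = 0.0333) and -1.21 and -1.35 in M8/M3 (adjusted p = 0.0022). Irf2, which antagonises Irf1, rose 2.15-fold in M8/M3 (arrays at 1.03 and 1.18, adjusted p = 0.00233) and 1.59-fold in F8/F3 (arrays at 0.86 and 0.48, adjusted p = 0.0157).

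Among the interferon-induced genes of this list, 9 of 34 tested were called lower in M8/F8. Cxcl9, which draws in T cells, was -1.14 and -1.36 in M8/F8, or 2.38-fold lower in males (adjusted p = 0.00661). Cxcl10 was 2.12-fold lower in M8/F8 (-1.08, SE 0.19, adjusted p = 0.0101) and -1.89 and -2.36 in M8/M3 (adjusted p = 0.000812). It also fell in females, at -0.82 and -1.07 in F8/F3 (adjusted p = 0.017). Gbp7 was -1.06 and -0.97 in M8/F8 (adjusted p = 7.33e-05), and Gbp5, Gbp6, Ifit3b, Samd9l, Slfn8 and Ccl5 were called lower there at -0.95, -0.94, -0.72, -0.86, -0.67 and -0.69. Gbp4 was -0.53 and -0.42 (adjusted p = 0.0259), under the fold threshold. Gbp5 was well above background in M8 on 1 of the 2 arrays. Ifng, the gene of interferon gamma itself, was well above background on none of the M8 arrays, so no ratio with M8 is given for it, and its call in M8/M4 rests on M4 alone. In F8/F3, Nlrc5, the transactivator of MHC class I genes, was 1.17 and 0.73 (adjusted p = 0.0104) and B2m 0.41 and 0.80 (adjusted p = 0.00189). The difference between the sexes was called for neither.

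Markers of cell types that respond to interferon were measured on the same arrays. All 10 Kupffer cell and macrophage markers were below 0 in M8/F8, and 5 were called lower (Adgre1 -0.65, C1qa -0.59, Clec4f -0.59, Marco -1.05 and Timd4 -0.67), with a list median of -0.58. All 10 had their lowest level in M8 in both replicates. Their mean relative log2 level was -0.54 and -0.70 in M8, -0.04 and 0.02 in F8, 0.06 and -0.07 in M3, -0.05 and 0.09 in M4, 0.25 and 0.29 in F3 and 0.32 and 0.37 in F4. All 10 were well above background in both channels of every array. The macrophage markers were also below 0 in all 10 cases in M3/F3 (median -0.25) and M4/F4 (median -0.27), where the members' medians were 0.05 and -0.08. In M8/M3 and M8/M4 the markers' medians were -0.44 and -0.52, and those of the members -0.49 and -0.58. In F8/F3 and F8/F4 the markers' medians were -0.15 and -0.23, and those of the members -0.01 and -0.28. Called lower were 2 markers in each male age comparison, 1 in each female one and 1 in M4/F4. The part of macrophage number in the members' ratios was not tested.

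**Figure D5:**
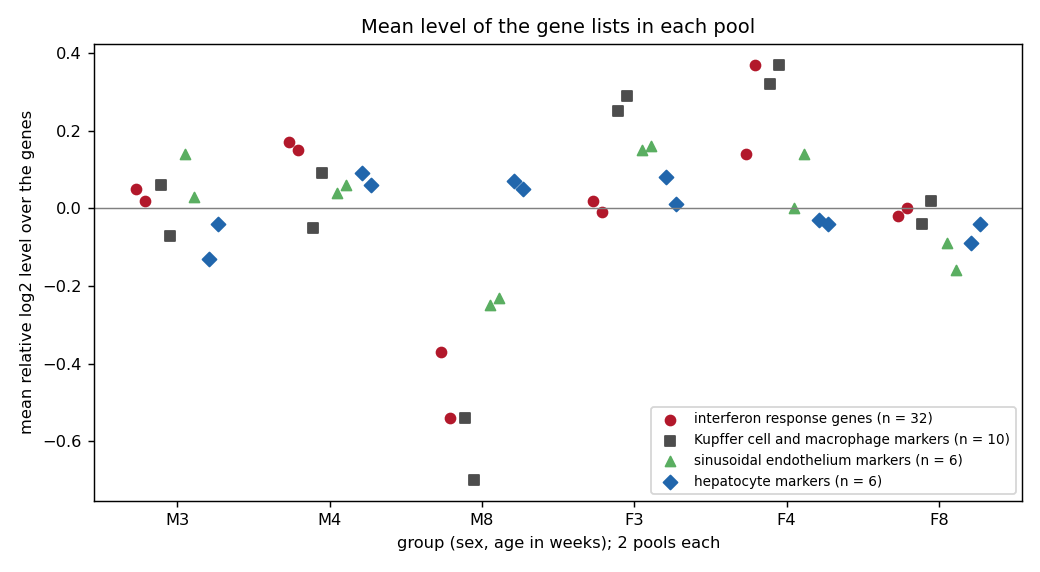
Mean relative log2 level (vertical axis) over the genes of 4 lists in each of the 6 groups (horizontal axis), with 1 point for each of the 2 pools. Interferon response genes are at -0.37 and -0.54 in M8 and Kupffer cell and macrophage markers at -0.54 and -0.70, while the hepatocyte markers are at 0.07 and 0.05.

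Of the other cell types, sinusoidal endothelium markers had a mean relative level of -0.25 and -0.23 in M8 and -0.09 and -0.16 in F8. Cd3g, a T cell receptor subunit, was called lower in M8/F8 at -0.94 and -0.78 (adjusted p = 0.0013), the only one of 5 tested T and NK cell markers, whose median was 0.01. In the male age comparisons 2 of 6 T and NK cell markers were called lower in M8/M3 (median -0.16) and 2 in M8/M4 (median -0.15), Cd3g in both, and in the female ones none (medians -0.22 and -0.15). Of 6 endothelial markers Lyve1 alone was called, lower in M8/M3 (-1.20), M8/M4 (-0.85) and F8/F3 (-0.94). No marker of B cells (median -0.22) or plasmacytoid dendritic cells (median -0.08), the main makers of type I interferon, was called in M8/F8. Hepatocyte markers had a median of 0.20 in M8/F8 with no call. Neutrophil and myeloid precursor markers fell with age in both sexes, with 4 of 5 called lower in M8/M3 (median -1.93) and in F8/F3 (median -2.56), and 3 of 5 were called lower in M3/F3 (median -0.72), where no member was called. In M8/F8 none of the 4 tested was called (median -0.26). Erythroid markers had medians of -1.62 in M8/M3 and -1.61 in F8/F3, with 4 of 5 called lower in each and Alas2 called higher in M8/M3 (1.33 and 1.41) but not in F8/F3 (0.07 and -0.62), and of -0.02 in M8/F8, where Alas2 alone was called, higher in males at 1.78 and 1.99 (adjusted p = 0.000725). Their part in the members' ratios was not tested.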

How the data were processed

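The authors scanned 14 two-colour Agilent arrays and processed them with Feature Extraction 10.7.1.1, whose deposited intensity values are per spot and whose deposited log10 ratios of red over green were corrected for background and then for dye, linearly and by LOWESS. Ratios were converted to log2, oriented by the dyes in the labels and averaged over spots of a probe (39429 probes, 26055 named through RefSeq accessions). For M3/F3 the methods text gives the dyes in the opposite order. On the 6 male over female arrays the Y-linked genes bear out the labels, and the age arrays follow the labels alone. Intensity behind the ratios served for the background condition, the brightest probe and 2 alternatives. R 4.3.3 and limma 3.58.1 fitted 7 comparisons and a dye term, and p-values were adjusted (Benjamini-Hochberg) over all probes and comparisons, or within an interaction. The test was tried on simulated data. Each slide held 1 array of a comparison, so single-array values are the within-slide values. Replicates were separate pools. Deposited columns of the authors' processed table equalled the scanner ratios. The members and gene lists were chosen with earlier results of these data known. All members were named. Other pathway genes and markers could be named where called, with the receptors and Jak1 in any case. One gene of the pathway is not reported here. The number of arrays limits precision.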

Additional observations from a re-analysis of the deposited data

Results flagged for a closer look

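In all, 7 differences between the sexes in the age ratio of a member passed the test of the difference itself, each lower in males. From 3 to 8 wk the log2 differences were -1.15 for Gbp3, -0.92 for Igtp, -0.91 for Zbp1, -0.68 for Oasl1 and -0.59 for Psmb9. From 4 to 8 wk they were -0.83 for Igtp and -0.73 for Zbp1. In M8/M3 and F8/F3 respectively, Gbp3 was -1.01 and 0.14, Igtp -0.89 and 0.02, Zbp1 -0.91 and 0.00, Oasl1 -0.02 and 0.65, and Psmb9 -0.20 and 0.39. With 2 pools a group, no test for outlying samples was run, and the F4 pool of replicate 2 is described by its values only.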

How the results depend on the processing

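The 43 calls of a member in a comparison or interaction were made again under 13 other settings, and none changed direction. The last setting (interactions through the sex comparisons) was chosen after seeing the data. Of the 509 values this gave, 499 were still called, and the others are lost calls of Gbp3, Ifit2, Isg15, Oas1a, Oasl1, Oasl2, Psmb9, Usp18 and Zbp1. Settings that changed only the background condition, the fold threshold or the adjustment kept the main fit, so no direction could change there. Dropping the fold threshold or the background condition could not lose a call, so these values are in part fixed in advance. With no fold threshold the counts of called members were 4 in M3/F3, 2 in M4/F4, 15 in M8/F8, 20 in M8/M4, and in females 6 from 3 wk and 10 from 4 wk. Without the dye term the count was 3 in the interaction from 3 to 8 wk. With a covariance for the pools that arrays share it was 9 there and 1 in F4/F3. Leaving out each array in turn, where the lone array left is assumed to vary like the others, gave 0 to 0 calls in M3/F3, M4/F4, M4/M3 and F4/F3, 1 to 6 in M8/F8, 7 to 11 in M8/M3 and 7 to 14 in M8/M4. It gave 1 to 2 calls in F8/F3, 1 to 4 in F8/F4, 2 to 6 in the interaction from 3 to 8 wk and 1 to 2 in that from 4 to 8 wk. The cause was not tested.

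The labels number the replicates, but deviations of same-numbered arrays correlated between -0.50 and 0.62 over 21 pairs of comparisons. A pool in the numerator of one comparison and the denominator of another can give either sign, so this does not settle whether the numbers mark shared pools, and the counts are given both ways. With the replicate block the counts were 6 in M8/F8, 13 in M8/M3 and 14 in M8/M4, then 2 in F8/F3, 5 in F8/F4, 6 and 3 in the interactions, and 0 in M3/F3, M4/F4, M4/M3 and F4/F3. The 4 slides were scanned on 2 days, with the male and female comparisons from 3 wk on different days. With slide as a random block all counts stayed as they were. Through the sex comparisons, which hold the same groups and were all scanned on 1 day, the interactions again had 5 and 2 calls. The members' median ratio in M8/F8 lay between -0.44 and -0.41 under other background corrections or probe averaging. With 2 pools per group, the number of arrays limits what can be called.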
